A study of Ovis aries with 12 samples.

Results

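The mitosis and spindle genes are 45 genes that build and time cell division: cyclins and CDK1, the polo and Aurora kinases, kinetochore and checkpoint proteins, spindle motors, chromosome compaction factors and the machinery of anaphase and cytokinesis. They were taken by symbol from the deposited gene table of sheep (Ovis aries) oviduct epithelial cells, where 39 of the 45 were found among 18340 genes. The other 6 (MKI67, BUB3, KIF11, CCNB1, CENPE and PTTG1) stand in that table under an Ensembl identifier, were matched by NCBI gene number, and are described beside the 39 without being counted with them. Of the 39, 38 passed the filter used for testing, a mean of at least 1 FPKM (fragments per length of transcript and per sequenced total) over all 12 libraries. The exception was CDC25C, a phosphatase that activates CDK1, at a mean of 0.852 FPKM.

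The cells were scraped after trypsin from the mucosa of the ampulla, the part of the oviduct where eggs are fertilised. All were held for 12 h in medium free of serum and of phenol red, a pH dye that weakly mimics oestrogen. RNA was sequenced after 1.5, 3.5 and 5.5 h of 10 nM oestradiol (E2), the main ovarian oestrogen, and at 0 h without it, with 3 libraries at each time. Each carries a number from 1 to 3 in its label, and whether a number marks an animal, a pool or a culture is not stated. No library kept without E2 beyond 0 h was used here, so time in culture and E2 cannot be told apart. The 3 libraries of a time are not said to come from separate animals or cultures, so p-values cover only the spread among them, part or all of which may be technical.

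In a dividing cell, transcripts of these genes accumulate in G2 and mitosis under FOXM1 and the MuvB complexes, and are low in resting cells. CDK1 with a cyclin starts mitosis, the kinetochore ties each chromosome to spindle microtubules, and the checkpoint holds the anaphase-promoting complex until all are attached. In many tissues their summed level follows the share of cells in division. In bulk RNA, fewer dividing cells and less mitotic RNA per cell cannot be told apart. The roles given below are those known from human, mouse and yeast cells.

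Gene counts summed to between 48490974 and 79387070 per library. On these plain totals 3 counts, taken as the detection floor, came to 0.0378 to 0.0619 CPM. All other CPM values are counts relative to the TMM-scaled library total. This floor covers counting error only. Epithelial markers were high in every library (KRT8 at 5530 to 9100 CPM, EPCAM at 597 to 1100 CPM). OVGP1, the oviduct glycoprotein of secretory cells, lay at 0.122 to 2.90 CPM. FOXJ1 and DNAH5, defining genes of ciliated cells, had 0 counts in 8 of 12 libraries, and CAPS, another ciliated marker, in 3. The ciliated markers TPPP3 (10.3 to 37.3 CPM), RSPH1 (10.7 to 17.5 CPM) and DNAI1 (1.53 to 4.4 CPM) had counts in every library. So did MCIDAS (0.85 to 2.39 CPM) and CCDC78 (0.422 to 1.32 CPM). The first principal component (44.1% of the variance) set 3 of the 4 libraries numbered 3 apart at 50.0 to 57.1, with the 1.5 h library numbered 3 at 5.26 and the other 8 at −29.3 to −13.3. That 1.5 h library also stood alone on the third component, at 38.5.

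All the mitotic genes but a few moved together from library to library, and they differed more by the number on the library than by time. Relative to each gene's own mean over the 12 libraries (log2 CPM), the median of the 38 genes was 0.25, 0.04 and 1.21 in numbers 1, 2 and 3 at 0 h. After 1.5 h of E2 it was −0.31, −1.16 and 0.32, after 3.5 h −0.34, −1.08 and 1.18, and after 5.5 h −0.40, −0.97 and 1.40. Numbers 1 and 2 thus lay below their 0 h value at each of the 3 later times, whereas number 3 lay below it at 1.5 h and close to it at 3.5 and 5.5 h. The highest library was 5.5 h number 3 for 26 of the 38 genes and 0 h number 3 for 10, and the lowest was 1.5 h number 2 for 19 and 3.5 h number 2 for 10.

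**Figure D1:**
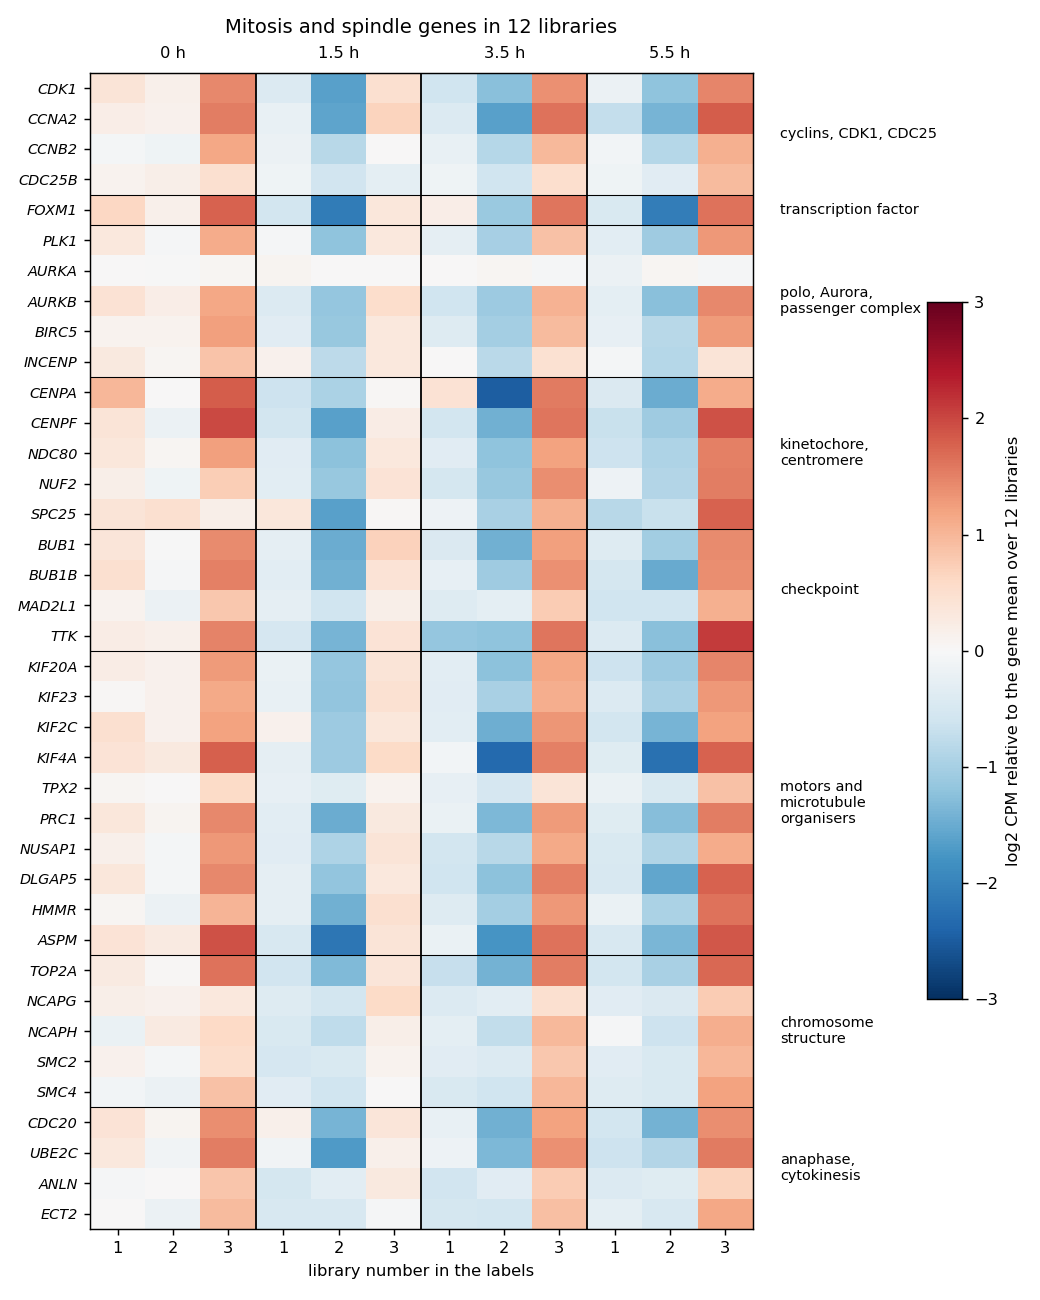
Each row is 1 of the 38 genes tested, grouped by role, and each column 1 library, ordered by hours of E2 and then by number. Colour gives log2 CPM relative to the gene's mean over the 12 libraries: number 3 is red at 0, 3.5 and 5.5 h, number 2 is blue at the 3 later times, and AURKA is near white throughout.

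After 1.5 h of E2, 37 of the 38 genes had a lower fitted level than at 0 h, against 49.6% of all genes tested, and the median log2 difference was −0.80, against 0.00 over all genes. None of the 38 passed edgeR's quasi-likelihood test at an adjusted p under 0.05 (adjusted p = 1.0 for each), and neither did any of the 12025 genes tested (0.0% called). Without adjustment 0 of the 38 and 287 of all genes (2.39%) had a p under 0.05, and DESeq2 also called 0 of the 38 (0.00832% of all genes). The standard errors (SE) of the log2 differences had a median of 0.744, close to the median difference. Leaving out 0 h number 3 brought the median difference to −0.37, and leaving out 1.5 h number 2 to −0.50.

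Within numbers the direction was more even. At 1.5 h, 36 of the 38 genes were lower than at 0 h in 3 of 3 same-numbered pairs, against 13.7% of all genes, the exceptions being AURKA and NCAPG. The median difference was −0.49 in number 1, −1.25 in number 2 and −0.89 in number 3. The libraries of 1.5 h and 0 h did not overlap for 1 gene, CDC25B (4.02% of all genes were lower without overlap), so that for the other 37 the highest 1.5 h library, mostly number 3, reached into the 0 h range.

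At 3.5 h, 36 of the 38 genes had a lower fitted level than at 0 h (48.9% of all genes), with a median log2 difference of −0.38. At 5.5 h this held for 30 of the 38 (47.8% of all genes), with a median of −0.23. In this model, which has no term for the numbers, the direction of both medians rested on single libraries. Leaving out 1 library there also shifts the balance of numbers between the times. Without 0 h number 3 the medians were 0.09 at 3.5 h and 0.20 at 5.5 h. Without 3.5 h number 1, 2 or 3 the 3.5 h median was −0.17, −0.02 or −1.30, and without 0 h number 2 it was −0.61. Without 5.5 h number 1, 2 or 3 the 5.5 h median was 0.04, 0.14 or −1.31, and without 0 h number 1 or 2 it was −0.41 or −0.43. edgeR called 0 of the 38 at either time (0.0% of all genes). Without adjustment 260 genes at 3.5 h (2.16%) and 252 at 5.5 h (2.1%) had a p under 0.05, 0 of the 38 among them. DESeq2 also called 0 of the 38 at both times (0.0499% and 0.0582% of all genes). The pair counts were 25 of 38 lower in 3 of 3 pairs at 3.5 h (16.2% of all genes) and 10 of 38 at 5.5 h (15.1%). Numbers 1 and 2 stayed lower, with medians of −0.55 and −1.13 at 3.5 h and of −0.66 and −0.99 at 5.5 h. In number 3 the median was −0.09 at 3.5 h and 0.14 at 5.5 h. The genes lower in both numbers 1 and 2 were 37 at 1.5 h, 37 at 3.5 h and 36 at 5.5 h, against 24.6%, 29.0% and 28.8% of all genes. Of these, 1, 12 and 26 were higher than at 0 h in number 3, a pattern that 10.9%, 12.7% and 13.7% of all genes had. With 1 library for each time and number, whether the time course differs between numbers could not be tested.

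**Figure D2:**
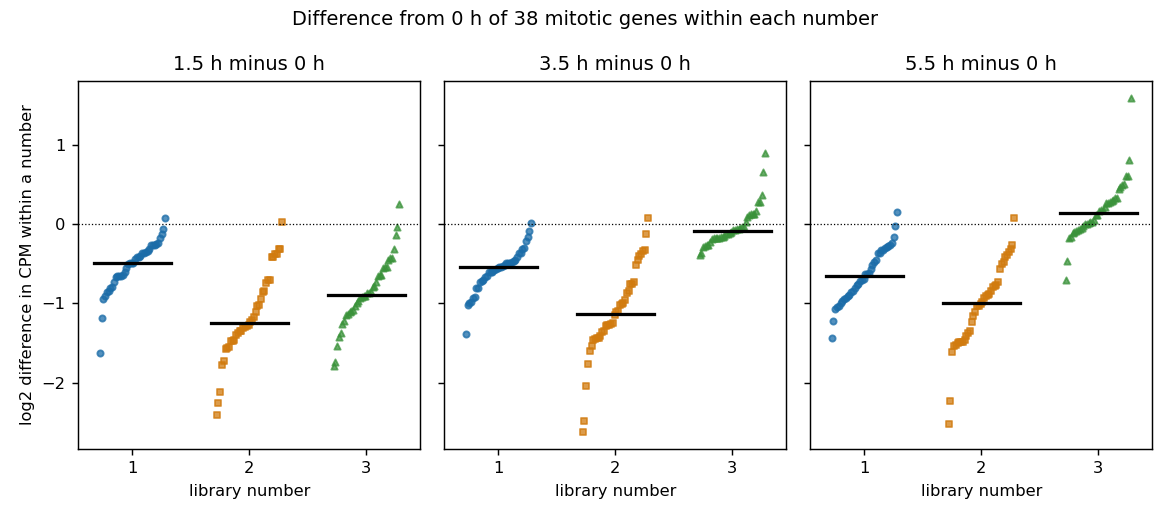
Points are the 38 genes, each placed at its log2 difference in CPM from the 0 h library of the same number, in 1 panel for each later time; black bars are medians. Nearly all points of numbers 1 and 2 lie below 0 at each time, while the median of number 3 moves from −0.89 at 1.5 h to −0.09 at 3.5 h and 0.14 at 5.5 h.

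Giving each number its own term in the model (a replicate block) narrowed the median SE at 1.5 h to 0.256 and left the median difference at −0.85. Under that block edgeR still called 0 of the 38 at 1.5 h (0.00832% of all genes), with adjusted p of 0.389 to 0.925. However, 34 of the 38 then had an unadjusted p under 0.05, against 9.81% of all genes, and at 3.5 and 5.5 h these were 21 and 16, against 6.5% and 6.51%. DESeq2 with the same block called 12 of the 38 lower at 1.5 h, against 0.466% of all genes called lower and 0.798% called in either direction. These were CDK1, FOXM1, BIRC5, CENPF, NDC80, BUB1, BUB1B, PRC1, NUSAP1, ASPM, TOP2A and ANLN, and 0 were called at 3.5 or 5.5 h (0.283% and 0.266% of all genes). In edgeR the block gave medians of −0.62 at 3.5 h and −0.54 at 5.5 h. A lower fitted level was then found for 37 and 38 of the 38 (50.3% and 49.2% of all genes). Without the 1.5 h library numbered 3 these medians were −0.64 and −0.56. With the 1.5 h library numbered 3 left out, DESeq2 with the block called 3 at 1.5 h (BUB1B, CENPF and PRC1; 0.15% of all genes called lower), 4 at 3.5 h (BUB1, CENPF, NUSAP1 and PRC1; 0.366%) and 6 at 5.5 h (BUB1B, CDC20, CENPF, INCENP, KIF2C and NUSAP1; 0.64%). edgeR on numbers 1 and 2 alone with the block called TOP2A at 1.5 h (0.0582% of all genes called lower), TOP2A at 3.5 h (0.0748%), and BUB1B and TOP2A at 5.5 h (0.15%).

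**Figure D3:**
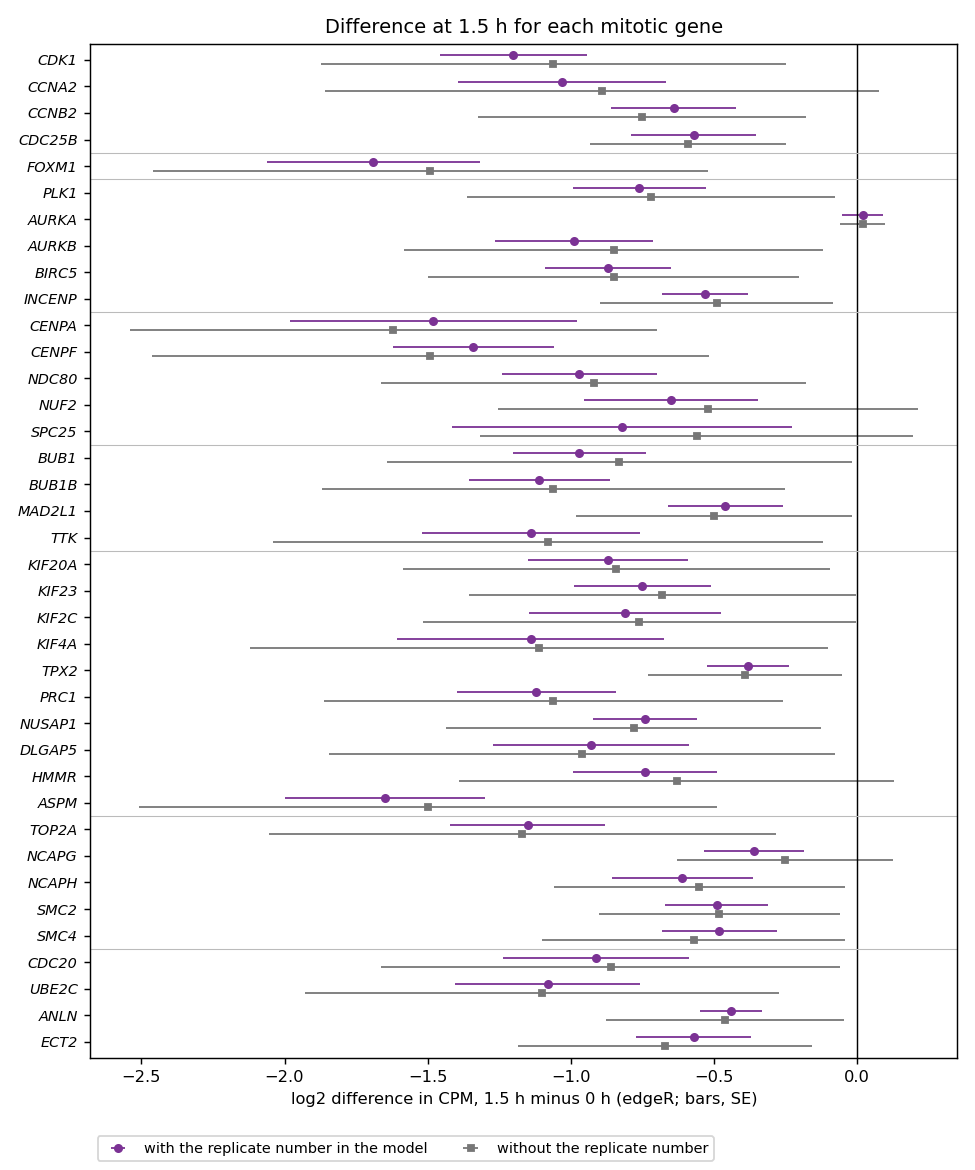
For each of the 38 genes, in the order of the roles, circles give edgeR's log2 difference of 1.5 h minus 0 h with the replicate number in the model and squares the difference without it; bars are SE. The estimates are alike (medians −0.85 and −0.80), the bars are narrower with the number, and AURKA alone sits at 0.

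CDK1, the kinase whose activity starts mitosis, stood at 34.1, 29.1 and 70.9 CPM at 0 h, 19.7, 8.48 and 36.1 CPM at 1.5 h, 17.2, 10.9 and 67.0 CPM at 3.5 h and 23.0, 11.4 and 72.1 CPM at 5.5 h, the 3 values at each time being those of numbers 1, 2 and 3 here and below. It was highest in number 3 at each time, and in each number the 1.5 h library lay below that of 0 h, although 36.1 CPM in 1.5 h number 3 exceeded 34.1 CPM in 0 h number 1. The fitted difference at 1.5 h was −1.06 ± 0.81 (log2, SE), and −1.21 ± 0.24 in DESeq2 with the block (adjusted p = 0.000406). CCNA2, cyclin A2, which partners CDK1 before and at mitotic entry, had 13.3, 12.7 and 33.8 CPM at 0 h, 10.0, 3.85 and 18.4 CPM at 1.5 h, 8.69, 3.72 and 36.4 CPM at 3.5 h and 7.12, 4.43 and 41.3 CPM at 5.5 h. Its 5.5 h library numbered 3 was the highest of all, and numbers 1 and 2 lay below their 0 h value at every later time. CCNB2, a B-type cyclin, ranged from 8.01 to 32.5 CPM and CDC25B, a phosphatase that activates CDK1, from 14.4 to 42.3 CPM. CDC25B reached 19.6, 14.5 and 17.6 CPM at 1.5 h, against 23.2, 24.3 and 30.2 CPM at 0 h, without overlap, a difference of −0.59 ± 0.34 (log2, SE). The other B-type cyclin, CCNB1, was found by its gene number and had 19.8, 20.9 and 44.3 CPM at 0 h, 16.3, 10.3 and 27.7 CPM at 1.5 h, 16.2, 9.38 and 52.0 CPM at 3.5 h and 14.1, 7.36 and 46.9 CPM at 5.5 h. As for CCNB2, number 3 was highest at each time. In number 3 CCNB1 exceeded its 0 h value at 3.5 and 5.5 h. CCNB2 did not, with 32.5 CPM at 0 h, 28.7 CPM at 3.5 h and 30.5 CPM at 5.5 h in number 3.

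FOXM1, the transcription factor that activates many genes of G2 and mitosis, was the lowest of the 38 per length, at a mean of 1.15 FPKM. It had 2.93, 2.11 and 6.48 CPM at 0 h, 1.27, 0.416 and 2.39 CPM at 1.5 h, 2.19, 0.854 and 5.80 CPM at 3.5 h and 1.37, 0.423 and 5.99 CPM at 5.5 h. Each number was lower at 1.5 h than at 0 h, by −1.18, −2.25 and −1.42 on the log2 scale in numbers 1, 2 and 3. At 3.5 h it stood between its 0 h and 1.5 h values in all 3 numbers. The fitted difference at 1.5 h was −1.49 ± 0.97 (log2, SE), and −1.70 ± 0.38 in DESeq2 with the block (adjusted p = 0.00406).

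PLK1, the polo kinase of centrosome maturation and mitotic exit, had 19.9, 15.6 and 34.4 CPM at 0 h, 15.7, 6.93 and 19.9 CPM at 1.5 h, 13.1, 8.02 and 29.3 CPM at 3.5 h and 12.8, 7.62 and 39.0 CPM at 5.5 h. In number 2 it was at less than its 0 h level at all later times, and in number 3 it was above it at 5.5 h. AURKB, the Aurora kinase of the chromosomal passenger complex, which corrects faulty chromosome attachment, had 7.71, 6.54 and 12.9 CPM at 0 h, 4.29, 2.55 and 8.22 CPM at 1.5 h, 3.79, 2.66 and 11.9 CPM at 3.5 h and 4.65, 2.36 and 15.6 CPM at 5.5 h. The 3.5 and 5.5 h libraries of number 3 stood close to or above that of 0 h, while those of numbers 1 and 2 stayed below. BIRC5 (survivin) and INCENP, which hold AURKB in that complex, ranged from 2.46 to 13.2 CPM and from 4.43 to 14.5 CPM. INCENP was lower in 3 of 3 pairs at each of the later times.

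AURKA, the Aurora kinase of centrosomes and spindle poles, did not share the pattern. Its row, on chromosome 13 from 58840124 to 58858898 in the coordinates of the authors' table (build not given in the sources used here), had 114, 113 and 119 CPM at 0 h, 121, 116 and 115 CPM at 1.5 h, 115, 120 and 113 CPM at 3.5 h and 102, 119 and 112 CPM at 5.5 h. The highest library was 1.19 times the lowest, against a median of 6.67 times over the 38 genes, and no number stood apart. The difference at 1.5 h was 0.02 ± 0.08 (log2, SE). At a mean of 24.6 FPKM it was also the highest of the 38 per length, and its correlation with the mean of the other members over the 12 libraries was −0.19. TPX2, the microtubule factor that binds and activates AURKA, lies on the same chromosome from 60597536 to 60651659 and had 58.6, 56.5 and 82.9 CPM at 0 h, 47.0, 43.3 and 60.5 CPM at 1.5 h, 47.2, 39.7 and 73.4 CPM at 3.5 h and 48.6, 40.6 and 102 CPM at 5.5 h. TPX2 did follow the other genes (r = 0.966 with their mean over 12 libraries), over a narrower range than most, its highest library being 2.58 times its lowest.

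CENPA, the histone H3 variant that marks centromeres, had the most negative difference at 1.5 h, −1.62 ± 0.92 (log2, SE), on few reads. It had 1.71, 0.836 and 3.05 CPM at 0 h, 0.534, 0.416 and 0.859 CPM at 1.5 h, 1.14, 0.122 and 2.54 CPM at 3.5 h and 0.609, 0.277 and 1.85 CPM at 5.5 h. The 1.5 h libraries numbered 1, 2 and 3 were each below their 0 h partner, and the lowest value, in 3.5 h number 2, rested on 6 counts. CENPF, a large kinetochore protein that accumulates in G2, had 20.4, 14.0 and 61.4 CPM at 0 h, 10.6, 5.05 and 18.4 CPM at 1.5 h, 10.6, 5.76 and 47.7 CPM at 3.5 h and 9.91, 7.46 and 58.8 CPM at 5.5 h. In number 3 it stood at 18.4 CPM at 1.5 h, against 61.4 CPM at 0 h, the largest step of that number in CPM among the kinetochore genes. Its difference at 1.5 h was −1.49 ± 0.97 (log2, SE), and −1.34 ± 0.26 in DESeq2 with the block (adjusted p = 0.000406).

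NDC80, the microtubule-binding subunit of the outer kinetochore, had 16.1, 13.4 and 30.5 CPM at 0 h, 10.3, 5.43 and 16.0 CPM at 1.5 h, 10.1, 5.57 and 29.7 CPM at 3.5 h and 8.37, 6.77 and 36.4 CPM at 5.5 h. NUF2 and SPC25, its partners in the same complex, had the most positive differences of the 38 at 3.5 h (NUF2, 0.03 ± 0.73) and at 5.5 h (SPC25, 0.25 ± 0.75; both log2, SE). NUF2 had 6.80, 5.49 and 10.0 CPM at 0 h, 4.81, 2.69 and 8.04 CPM at 1.5 h, 4.17, 2.71 and 15.9 CPM at 3.5 h and 5.40, 3.21 and 17.5 CPM at 5.5 h. SPC25 had 2.73, 2.92 and 2.34 CPM at 0 h, 2.62, 0.651 and 2.12 CPM at 1.5 h, 1.87, 1.04 and 4.40 CPM at 3.5 h and 1.16, 1.29 and 7.11 CPM at 5.5 h. Both exceeded their 0 h value in number 3 at 3.5 and 5.5 h and stayed below it in numbers 1 and 2, and SPC25 was the 1 gene of the 38 for which number 3 was not the highest library at 0 h (number 3 was highest there for 41.9% of all genes). CENPE, the kinesin that carries chromosomes to the spindle equator, was found by its gene number and ranged from 8.46 to 49.3 CPM. Its difference at 1.5 h was −0.69 ± 0.68 (log2, SE), and DESeq2 with the block called it (adjusted p = 0.0447).

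Among the checkpoint genes, BUB1, a kinase of unattached kinetochores, had 11.1, 8.46 and 22.9 CPM at 0 h, 7.07, 3.04 and 13.8 CPM at 1.5 h, 6.31, 3.11 and 20.4 CPM at 3.5 h and 6.54, 4.12 and 23.1 CPM at 5.5 h. TTK (MPS1), the kinase that starts checkpoint signalling, had 7.84, 7.49 and 18.9 CPM at 0 h, 4.71, 2.53 and 8.91 CPM at 1.5 h, 2.99, 2.89 and 20.6 CPM at 3.5 h and 5.04, 2.80 and 28.7 CPM at 5.5 h. Both were lower in 3 of 3 pairs at 1.5 h, and at 5.5 h TTK in number 3 was the highest of its 12 values. BUB1B (BubR1), which inhibits the anaphase-promoting complex, ranged from 4.17 to 34.0 CPM, and MAD2L1 (MAD2), its partner in that inhibitor, from 10.0 to 31.8 CPM. BUB1B was called at 1.5 h by DESeq2 with the block (−1.11 ± 0.24, log2, SE; adjusted p = 0.00238). BUB3, which recruits BUB1 and BUB1B, was found by its gene number and had 81.8, 98.1 and 121 CPM at 0 h, 93.3, 90.6 and 108 CPM at 1.5 h, 89.4, 86.6 and 101 CPM at 3.5 h and 82.8, 93.6 and 106 CPM at 5.5 h. Like AURKA it kept to a narrow range, and its difference at 1.5 h was −0.04 ± 0.15 (log2, SE). Unlike AURKA, BUB3 was highest in number 3 at each time. Its difference among the numbers was called by edgeR with time in the model (adjusted p = 0.0147).

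All 10 spindle motors and microtubule organisers had a lower fitted level at 1.5 h and at 3.5 h than at 0 h (49.6% and 48.9% of all genes). In 3 of 3 pairs, 10 of 10 were lower at 1.5 h, 7 at 3.5 h and 3 at 5.5 h. Of all genes this held for 13.7%, 16.2% and 15.1%. KIF20A, a kinesin of the central spindle and cytokinesis, had 35.1, 32.8 and 73.4 CPM at 0 h, 26.3, 13.5 and 39.1 CPM at 1.5 h, 24.3, 12.8 and 67.4 CPM at 3.5 h and 19.4, 14.0 and 83.0 CPM at 5.5 h. Number 3 was lowest at 1.5 h and highest at 5.5 h, and numbers 1 and 2 lay below 0 h throughout. KIF4A, a chromosome-bound kinesin, had the most negative difference at 3.5 h (−0.59 ± 1.00, log2, SE) and 8.19, 7.56 and 21.7 CPM at 0 h, 5.14, 2.89 and 9.29 CPM at 1.5 h, 5.83, 1.20 and 17.8 CPM at 3.5 h and 4.78, 1.29 and 21.3 CPM at 5.5 h. ASPM, a spindle pole protein, had the most negative difference of this group at 1.5 h, −1.50 ± 1.01, and −1.66 ± 0.31 in DESeq2 with the block (log2, SE; adjusted p = 0.000198). PRC1, which bundles the antiparallel microtubules of the central spindle, and NUSAP1, a spindle-associated protein, ranged from 6.33 to 51.6 CPM and from 9.57 to 44.3 CPM. KIF23, KIF2C, DLGAP5 and HMMR, which act in cytokinesis, microtubule shortening and spindle assembly, each had a highest library of 5.53 to 10.1 times the lowest. KIF11, the motor that separates spindle poles, was found by its gene number and had 23.8, 23.9 and 45.5 CPM at 0 h, 14.2, 9.82 and 24.8 CPM at 1.5 h, 14.3, 8.50 and 47.0 CPM at 3.5 h and 14.7, 10.0 and 57.9 CPM at 5.5 h. Its difference at 1.5 h was −0.93 ± 0.73 (log2, SE), called by DESeq2 with the block (adjusted p = 0.0285).

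**Figure D4:**
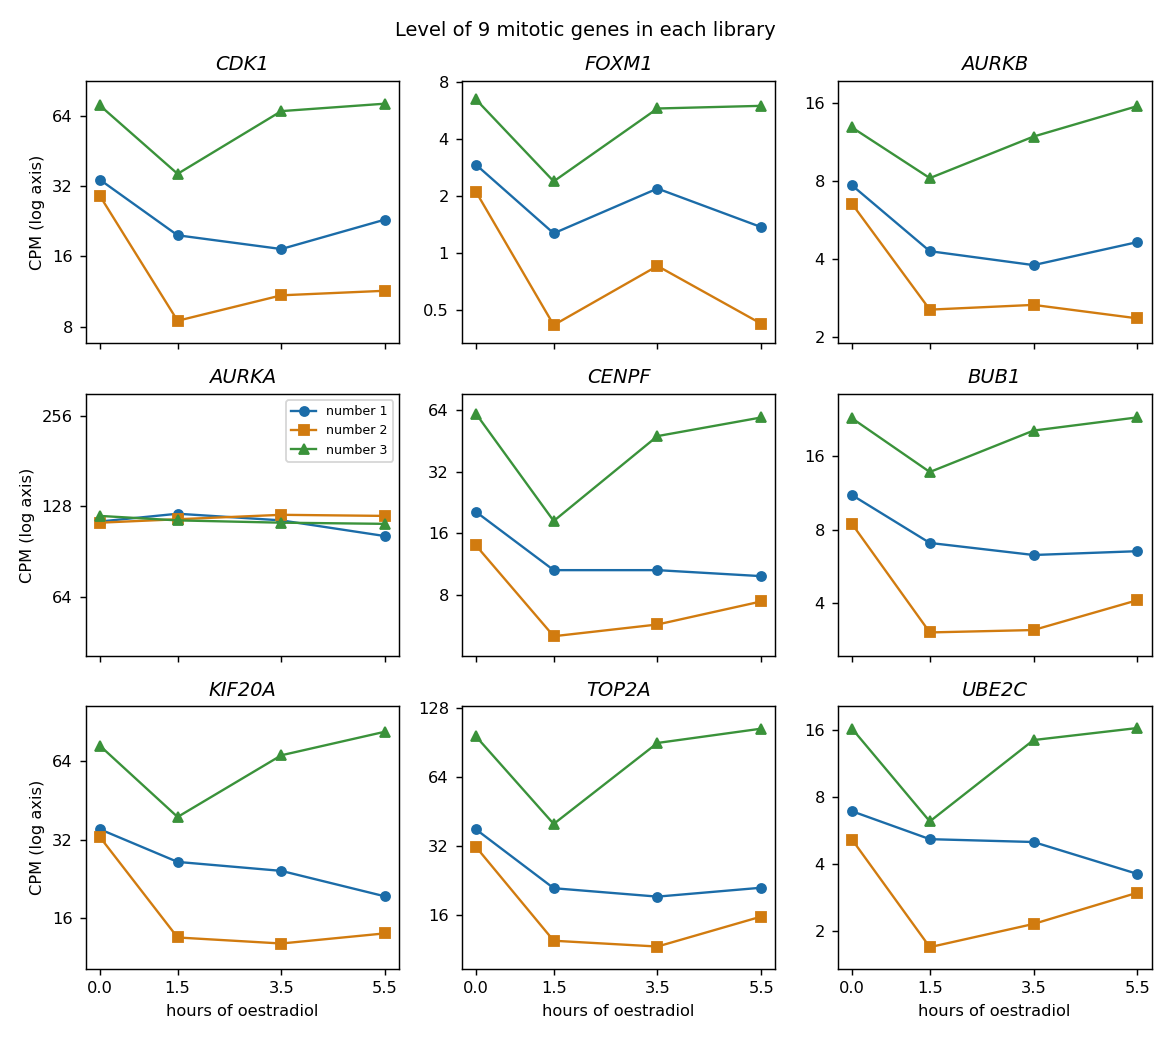
CPM on a log axis against hours of E2 for 9 of the genes; each line joins the 4 libraries of 1 number. Number 3 dips at 1.5 h in 8 of the 9 panels and is high again at 3.5 and 5.5 h, numbers 1 and 2 stay below 0 h, and AURKA is level at 102 to 121 CPM.

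TOP2A, the topoisomerase that untangles sister chromatids, had 37.9, 31.8 and 96.3 CPM at 0 h, 21.0, 12.4 and 40.0 CPM at 1.5 h, 19.3, 11.7 and 90.1 CPM at 3.5 h and 21.1, 15.8 and 104 CPM at 5.5 h. In numbers 1 and 2 the 3 later times lay at 11.7 to 21.1 CPM, against 37.9 and 31.8 CPM at 0 h, while number 3 had 40.0 CPM at 1.5 h and 90.1 and 104 CPM at 3.5 and 5.5 h, against 96.3 CPM at 0 h. Its difference at 1.5 h was −1.17 ± 0.89, and −1.15 ± 0.25 in DESeq2 with the block (log2, SE; adjusted p = 0.00213). The 4 condensin subunits, which compact chromosomes, varied less: the highest library was 2.51 (NCAPG) to 3.68 (NCAPH) times the lowest. SMC2, an ATPase subunit of condensin, had 34.8, 30.1 and 45.5 CPM at 0 h, 22.1, 23.1 and 33.8 CPM at 1.5 h, 24.8, 23.9 and 55.4 CPM at 3.5 h and 24.9, 23.0 and 62.6 CPM at 5.5 h. Numbers 1 and 2 were lower than at 0 h at each later time, and number 3 was above it at 3.5 and 5.5 h. NCAPG was the gene besides AURKA that was not lower in every pair at 1.5 h, with 70.3 CPM in 1.5 h number 3, against 59.3 CPM in 0 h number 3. MKI67, the Ki-67 antigen that coats mitotic chromosomes and marks cycling cells, was found by its gene number and had 71.7, 61.0 and 172 CPM at 0 h, 37.8, 16.0 and 66.6 CPM at 1.5 h, 38.8, 15.7 and 156 CPM at 3.5 h and 34.1, 18.3 and 192 CPM at 5.5 h. In number 2 the 3 later libraries were at 15.7 to 18.3 CPM, against 61.0 CPM at 0 h, and in number 3 the 5.5 h library was the highest of the 12.

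CDC20, which activates the anaphase-promoting complex, had 11.9, 9.39 and 23.5 CPM at 0 h, 9.90, 3.36 and 11.5 CPM at 1.5 h, 7.60, 3.23 and 20.6 CPM at 3.5 h and 6.07, 3.31 and 23.6 CPM at 5.5 h. UBE2C, the enzyme that supplies that complex with ubiquitin, had 6.91, 5.16 and 16.2 CPM at 0 h, 5.18, 1.70 and 6.22 CPM at 1.5 h, 5.03, 2.16 and 14.4 CPM at 3.5 h and 3.62, 2.98 and 16.3 CPM at 5.5 h. For both, 1.5 h number 3 lay between numbers 1 and 2 of 0 h, and number 3 was close to its 0 h level at 3.5 and 5.5 h. ANLN (anillin), a scaffold of the cleavage furrow, had 75.2, 76.6 and 136 CPM at 0 h, 53.5, 61.9 and 93.6 CPM at 1.5 h, 51.4, 60.6 and 131 CPM at 3.5 h and 58.0, 59.9 and 123 CPM at 5.5 h. Its difference was small but even, −0.49, −0.31 and −0.54 (log2) in numbers 1, 2 and 3 at 1.5 h, and it was lower in 3 of 3 pairs at every later time. DESeq2 with the block called it at 1.5 h (−0.45 ± 0.12, log2, SE; adjusted p = 0.0367). ECT2, a factor of cytokinesis, ranged from 18.9 to 62.5 CPM, and securin (PTTG1), which holds back the protease that parts sister chromatids, found by its gene number, from 3.16 to 15.7 CPM.

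Between the treated times edgeR called 0 of the 38 (0.0% of all genes in each comparison), with median log2 differences of 0.45 for 3.5 h minus 1.5 h, 0.62 for 5.5 h minus 1.5 h and 0.15 for 5.5 h minus 3.5 h. For 5.5 h minus 1.5 h the median was −0.04 in number 1, 0.13 in number 2 and 1.07 in number 3. For 3.5 h minus 1.5 h these were −0.09, 0.04 and 0.89, and for 5.5 h minus 3.5 h −0.02, 0.06 and 0.21. Leaving out 1 library moved the medians of the 3 comparisons to between −0.37 (without 3.5 h number 3) and 0.81 (without 1.5 h number 3), between −0.42 (without 5.5 h number 3) and 0.97 (without 5.5 h number 2), and between −0.88 (without 5.5 h number 3) and 0.98 (without 3.5 h number 3). Without 1.5 h number 2 the first 2 were 0.20 and 0.34, without 3.5 h number 2 the first was 0.80, and without 1.5 h number 3 the second was 0.96. The third was −0.07 or −0.22 without 3.5 h number 1 or 2, and 0.43 or 0.50 without 5.5 h number 1 or 2. On numbers 1 and 2 alone with the block the medians of these 3 comparisons were −0.03, 0.04 and −0.00, and with the block on all numbers 0.26, 0.36 and 0.08. Genes lower in 3 of 3 pairs numbered 0, 0 and 2 (13.4%, 13.1% and 12.6% of all genes), and those higher 7, 10 and 10 (13.7%, 14.3% and 13.6%). A test for any difference among the 4 times called 0 of the 38 in edgeR (0.0% of all genes) and 8 in DESeq2 with the block (0.632%). It called 6 in DESeq2 with the block and without 1.5 h number 3 (1.42%), and 1 in edgeR on numbers 1 and 2 alone with the block (0.249%).

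The difference among the 3 numbers, tested in edgeR with time in the model, was called for 36 of the 38 genes, against 35.5% of all genes. The median of number 3 minus number 1 was 1.23 (log2, 38 of 38 above 0) and that of number 2 minus number 1 was −0.62 (2 of 38 above 0), against −0.01 and −0.00 over all genes. AURKA (adjusted p = 0.767) and SPC25 (adjusted p = 0.0921) were the 2 not called. CCNA2 had 1.70 for number 3 minus number 1 and −0.83 for number 2 minus number 1 (adjusted p = 0.00156), and CENPF had 1.78 and −0.73 (adjusted p = 0.000582). Number 3 was the highest of the 3 libraries at all 4 times for 35 of the 38 genes (14.1% of all genes), and number 2 the lowest at all 4 times for 29 (7.69%).

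Each gene's log2 CPM was correlated with the mean of the other members over the 12 libraries, which share their depth, number and any difference in cell make-up. The median r was 0.978, with 33 of the 38 at 0.9 or more, and 0.958 over the 8 libraries numbered 1 and 2. AURKA (−0.19), SPC25 (0.859), ANLN (0.885), NCAPG (0.892) and CENPA (0.894) lay under 0.9. Outside the 38, the 5 genes most like their mean were CKAP2, a spindle protein (r = 0.997), ARHGAP11A (0.991), RRM2, a subunit of ribonucleotide reductase (0.991), PBK, a mitotic kinase (0.990), and KNL1, a kinetochore scaffold (0.990). In all, 276 other genes (2.3% of those tested) reached 0.9.

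Other genes of the cycle were taken from lists of textbook members, and edgeR called 0 of each list at 1.5, 3.5 and 5.5 h, with or without the block. Without it 0.0% of all genes were called at each time. With it the share was 0.00832% at 1.5 h and 0.0% at 3.5 and 5.5 h. Of the DNA replication genes, 28 of 31 had a lower fitted level at 1.5 h (49.6% of all genes), with a median log2 difference of −0.36, from RRM2 at −1.08 ± 0.97 to the origin factor CDC6 at 0.47 ± 0.35 (log2, SE). Of other kinetochore genes 28 of 30 were lower (median −0.34), from KNL1 at −1.27 ± 0.83 to CENPP at 0.03 ± 0.49. Of other spindle and centrosome genes 25 of 28 were lower (median −0.53), from DEPDC1 at −1.12 ± 0.88 to PSRC1, a microtubule-binding protein, at 0.21 ± 0.25. Other checkpoint and passenger genes were lower in 19 of 20 (median −0.47), from CDCA8, a passenger complex subunit, at −1.17 ± 0.74 to MAD2L1BP, which takes MAD2 out of the checkpoint complex, at 0.31 ± 0.13. Other condensin, cohesin and chromosome genes were lower in 18 of 19 (median −0.33), from the lamin LMNB1 at −0.91 ± 0.78 to NUCKS1 at 0.09 ± 0.17.

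The subunits of the anaphase-promoting complex were lower in 8 of 15 at 1.5 h, with a median of −0.01, from ANAPC13 at −0.68 ± 0.29 to ANAPC10 at 0.29 ± 0.22 (log2, SE). The MuvB, MYB and E2F regulators were lower in 12 of 16 (median −0.05), from MYBL1 at −1.09 ± 0.66, with lower values in 3 of 3 pairs, to NFYC at 0.17 ± 0.12. G1 cyclins, CDK inhibitors and pocket proteins were lower in 13 of 16 (median −0.30), from the CDK inhibitor CDKN2C at −0.84 ± 0.73 to CDKN1A (p21), another inhibitor, at 0.49 ± 0.59. CDKN1A had 190 ± 50.9 CPM at 1.5 h and 135 ± 59.4 CPM at 0 h (SD, n = 3 each) and was higher in 3 of 3 pairs.

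DESeq2 with the block called genes of these lists at 1.5 h, all lower. Of all genes it called 0.466% lower and 0.798% in either direction. The list genes called were 5 of 28 spindle genes (ARHGAP11A, CIT, CKAP2, DEPDC1 and RACGAP1) and 3 of 20 checkpoint genes (CCNF, CDCA8 and PBK). The others were 2 of 31 replication genes (CDC45 and UHRF1), 2 of 30 kinetochore genes (KNL1 and SPDL1), 1 of 19 condensin and chromosome genes (TMPO) and 1 of 16 regulators (MYBL1). It called 0 of the anaphase-promoting complex and G1 lists at 1.5 h. It called DEPDC1 and CCNF at 3.5 h (0.283% of all genes), and 0 of any list at 5.5 h (0.266%). At 3.5 h the replication genes were lower in 21 of 31 (median −0.08; 48.9% of all genes) and at 5.5 h in 9 of 31 (median 0.07; 47.8% of all genes). Spindle genes were lower in 26 of 28 at 3.5 h and 20 of 28 at 5.5 h (medians −0.20 and −0.09), and kinetochore genes in 22 and 18 of 30 (−0.13 and −0.11). This held for checkpoint genes in 15 and 12 of 20 (−0.23 and −0.07), and condensin and chromosome genes in 14 and 11 of 19 (−0.06 and −0.04). By number, edgeR called 27 of 31 replication, 24 of 30 kinetochore and 23 of 28 spindle genes, against 35.5% of all genes. It also called 16 of 20 checkpoint and 14 of 19 condensin and chromosome genes. Of the others it called 8 of 16 regulators, 8 of 16 G1 genes and 7 of 15 subunits of the anaphase-promoting complex.

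Markers of other cell types differed between the same libraries, and their part in the results for the mitotic genes was not tested. The 39 genes found under their symbol, CDC25C included, summed to 885, 810 and 1580 CPM in numbers 1, 2 and 3 at 0 h. Their sums were 671, 509 and 951 CPM at 1.5 h, 640, 525 and 1530 CPM at 3.5 h and 636, 538 and 1750 CPM at 5.5 h. The 9 stromal markers found, most of whose sum is VIM, ran the other way. They had 2070, 2520 and 1300 CPM at 0 h, 2520, 2740 and 2280 CPM at 1.5 h, 2380, 2800 and 1180 CPM at 3.5 h and 2350, 2790 and 1480 CPM at 5.5 h. The 6 smooth muscle markers summed to 823, 1050 and 219 CPM at 0 h and to 958, 1410 and 1930 CPM at 1.5 h, and in number 3 they were back at 319 CPM at 3.5 h and 539 CPM at 5.5 h. So the 1.5 h library numbered 3, the low point of number 3 for the mitotic genes, had 1930 CPM of smooth muscle markers. In 0 h number 3 they had 219 CPM, and CNN1 differed by 5.08 (log2) between these libraries. Most of the smooth muscle sum is TAGLN (182 to 1750 CPM over the 12 libraries). CNN1 (3.05 to 117 CPM) and ACTA2 (6.58 to 39.4 CPM) also ranged widely. MYH11 (3.51 to 5.08 CPM) and SMTN (17.5 to 37.7 CPM) varied less, and SMTN differed by 0.24 (log2) in that pair. In numbers 1 and 2 the smooth muscle sum at 1.5 h was 958 and 1410 CPM, against 823 and 1050 CPM at 0 h. The stromal sum was also higher there. However, the median log2 difference of the 6 stromal markers tested was 0.0, 0.06 and 3.12 in numbers 1, 2 and 3. DES and PDGFRB, defining genes of muscle and of stromal cells around vessels, had 0 counts in 8 and 6 libraries. The 10 epithelial rows summed to 14600 to 19500 CPM. The immune markers summed to 19.3 to 31.9 CPM, with PTPRC, CD3E, ITGAM, LYZ and CD2 at 0 counts in 4 to 11 libraries. The immune markers CD68 (9.23 to 20.7 CPM), CD14 (7.32 to 19.1 CPM) and CD79A (0.631 to 2.44 CPM) had counts in every library. The endothelial markers summed to 66.5 to 111 CPM in the 4 libraries numbered 3 and to 149 to 221 CPM in the other 8. Most of that sum is VWF (44.9 to 137 CPM) and CDH5 (20.5 to 80.3 CPM). KDR lay at 0.657 to 6.70 CPM, and PECAM1 and TEK had 0 counts in 5 and 6 libraries. Mitochondrial genes took 5.47% to 6.04% of the counts in the libraries numbered 3 and 4.83% to 5.0% in the other 8. Without the 1.5 h library numbered 3, edgeR with the block gave a median difference of the 38 of −0.61 at 1.5 h.

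**Figure D5:**
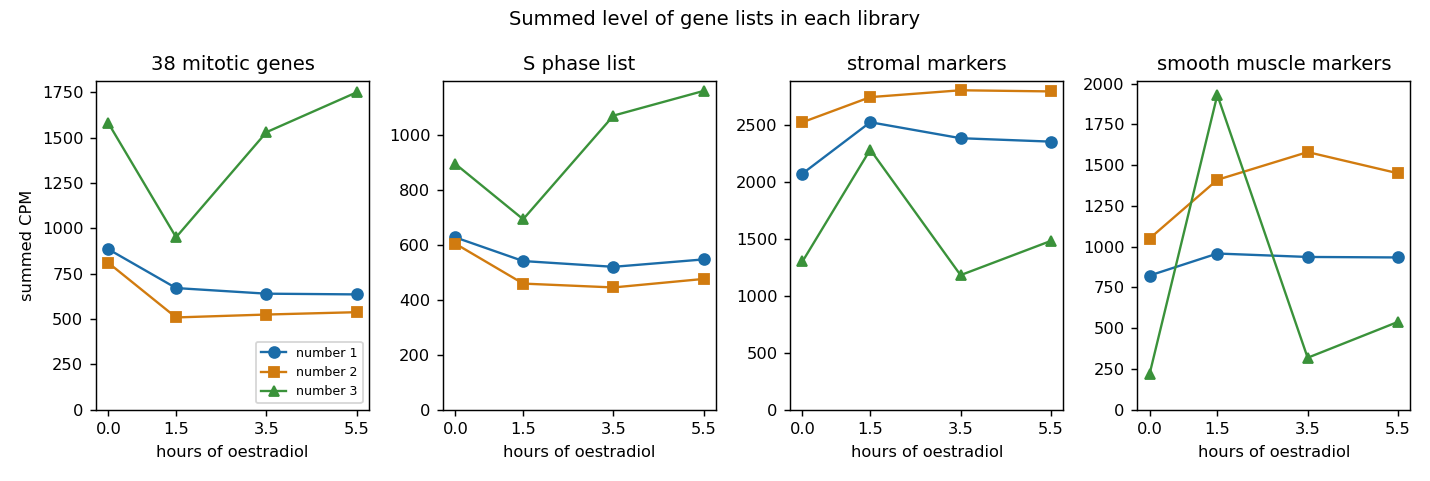
Summed CPM against hours of E2 for the mitotic genes, the DNA replication (S phase) list, the stromal markers and the smooth muscle markers. Each line joins the 4 libraries of 1 number. The mitotic panel sums the 39 genes found under their symbol, CDC25C included, although its title says 38. Mitotic and S phase sums of number 3 dip at 1.5 h (951 and 693 CPM), where its stromal and smooth muscle sums peak (2280 and 1930 CPM).

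In the authors' deposited table of comparisons, 12 of the 39 genes were marked as differing at 1.5 h, against 0.671% of all 18340 genes, each with a q-value of 1.0, and 0 of the 39 at 3.5 or 5.5 h, against 0.322% and 0.251% of all genes. The lowest p among them in the authors' deposited table was 0.00311, for CENPF at a log2 ratio of −1.54. In the authors' deposited table of enriched terms at 1.5 h, 38 terms name mitosis, its structures or the cell cycle, each resting on 1 to 4 genes (26 of the 38 on 1 gene). Their p in the authors' deposited table ran over 3.09e-05 to 0.381, with 24 under 0.05. Per transcript, 36 of the 39 genes had 1 transcript in the deposited table and 3 had 2. ANLN kept its longer transcript as the main one, at 57.6% to 80.8% of its FPKM over the 12 libraries, and PRC1 likewise, at 51.9% or more. CDC25C, below the filter, did not. Its longer transcript took 32.1% (5.5 h number 3) or more of its FPKM, with 39.8% in 0 h number 1 and 43.7% in 5.5 h number 2.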

How the data were processed

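RNA sequencing of 12 libraries was analysed. Per the submitters' processing notes, TopHat2 2.0.9 and Cufflinks were used, with no role stated for either. What genome build was aligned to, and how reads were counted, is not given in the sources used here. By its header, the gene table deposited by the authors has a read count and an FPKM for every gene in every library (FPKM scales for length and depth), and the transcript table has FPKM alone. The authors' deposited comparison tables give log2 ratios, each with its p-value and q-value (the test is not stated), and their enrichment tables give p-values of terms. Left aside were 72 more columns of per-sample values. Symbols missing from the gene table (4788 genes) were sought by NCBI gene number in RefSeq's sheep gene list (ARS-UI_Ramb_v3.0), which gave 1162 of them a name.

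Counts of the 12025 genes with a mean of at least 1 FPKM were scaled by TMM (factors 0.975 to 1.02) and tested with edgeR 4.0.16 (R 4.3.3), by quasi-likelihood F tests in 1 model of the 4 times, with Benjamini-Hochberg adjustment over all genes tested and a call at an adjusted p under 0.05. DESeq2 1.42.0, limma 3.58.1 on log2(FPKM + 1) and log2(FPKM + 0.1), a replicate block, other scalings and filters, and leaving out libraries were alternatives. Log2 CPM used a prior count of 2. Only edgeR's comparison of 1.5 h with 0 h was tried on simulated counts. These held no difference among the numbers, unlike the data, so the trial does not show how the tests fare here. The members, the lists and the tests were chosen with earlier results of these data known. Named genes were a set fixed by role, the members with the most extreme difference at each time, the 5 genes outside the set most like it, and from each list the extremes at 1.5 h; any further gene given a value was picked with its values in view.

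The numbers in the labels were taken as pairs after a check on deviations from the mean of a time. These correlated at 0.218 to 0.705 over the 18 pairs of libraries sharing a number (each above the limit of 0.1). Over the 36 others they correlated at −0.600 to 0.331. The ranges overlap and the others reach above the limit, so passing it does not by itself mark a shared number. No libraries were identical, and those of a group differed by more than counting error, with chi-square values of 40.2 to 307 for each degree of freedom.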

Additional observations from a re-analysis of the deposited data

How the results depend on the processing

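No median over the 38 genes at 1.5 h against 0 h changed its direction under any alternative run, with values of −0.86 to −0.65 over the other scalings, tests, filters and blocks on all 12 libraries and of −1.18 to −0.37 when 1 library was left out. At 3.5 h the median was −1.30 to 0.09 and at 5.5 h −1.31 to 0.20 over the libraries left out. Between treated times these ranges were −0.37 to 0.81, −0.42 to 0.97 and −0.88 to 0.98. The ranges over libraries left out come from fits without the replicate block, where leaving out 1 library also shifts the balance of numbers. Counts of called genes stayed at 0 in edgeR under other scalings and filters, with the replicate block, with either of the limma fits and without any 1 library. DESeq2 with the replicate block called 12 genes at 1.5 h and 8 for any difference among the times. edgeR with the replicate block on numbers 1 and 2 alone called 1 at 1.5 h, 1 at 3.5 h, 2 at 5.5 h and 1 for any difference. Chosen after seeing the data, DESeq2 with the replicate block and without the 1.5 h library numbered 3 called 3, 4 and 6 at the 3 times and 6 for any difference. The replicate block changed no other call among the 38; the genes it added outside them are given above. Also chosen then, pairs numbered 1 and 2 alone had 36 genes lower at 5.5 h, against 10 over 3 pairs. The 2 genes lower in 3 of 3 pairs at 5.5 h against 3.5 h were 1 on plain totals and 1 on FPKM as deposited. With a mean of at least 5 FPKM, 21 of 22 genes differed by number (37.6% of all genes tested there). The cause of these changes was not tested. Among the named genes, single fitted differences changed sign in 3, 9 and 33 of 315 alternatives at 1.5, 3.5 and 5.5 h, and in 2, 34 and 54 of 300 fits with 1 library left out. CENPA, SPC25 and FOXM1 rest on the fewest counts (801, 1741 and 1820 over the 12 libraries).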
